A study of Mus musculus with 40 samples.

Results

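The core spliceosome genes described here code for the proteins of the small nuclear ribonucleoproteins (snRNPs), the RNA helicases that drive them and the Prp19 complex. The members were 57 of the 43629 genes counted, taken by name from 7 classes of the splicing machinery: 7 Sm ring genes, 7 LSm ring genes, 4 of the U1 snRNP, 12 of the U2 snRNP and its partner U2AF, 14 of the U5 snRNP and the tri-snRNP, 8 helicases and 5 of the Prp19 complex. They were picked by gene name, with earlier results of these data known.

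RNA came from the dissected left amygdala, brain nuclei that handle fear and social cues, of male Swiss Webster mice aged 10 weeks. Mice carried a conventional microbiota (CON) or none (GF), or were born without one and then left the germ-free unit after weaning to live on bedding that CON mice had used (exGF). Each kind was either naïve or was sampled 1 hr after social interaction (SI), a three-chamber test with an unfamiliar mouse and an object. Naïve CON, GF and exGF had 4 libraries each, CON-SI and exGF-SI 8 each and GF-SI 12. The methods state that 2 animals were pooled in a naïve library, the labels 2 to 3, whereas an SI library came from 1 animal, so that pooling, handling and a new arena cannot be told apart from social contact, nor breeding stock from colonisation between CON and the other mice. Naïve libraries are named P and SI libraries S, with the numbers of the count table.

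The spliceosome removes introns from pre-mRNA. U1 snRNP marks the 5′ splice site and U2 snRNP the branch point, the tri-snRNP of U4, U6 and U5 then joins, and helicases rearrange the RNA so that the Prp19 complex can hold the catalytic core. Sm proteins form a ring around the U1, U2, U4 and U5 RNAs and LSm proteins around U6 RNA. These genes are needed in every cell type of the brain, and in a tissue sample fewer cells of a type cannot be told apart from less RNA per cell.

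Levels (CPM) are counts per 1000000, on library sizes scaled by TMM, a method that balances composition between libraries. A log2 fold change is the first group named over the second, and a gene was called at an adjusted p of 0.1 or less in edgeR's quasi-likelihood test with Benjamini-Hochberg (BH) adjustment over all genes tested. Total counts were 7291810 to 19961958 per library. The gene model Gm42418, which lies in ribosomal RNA sequence, took over 5% of the counts in 5 libraries (of CON, P1 and P3, of exGF, P1 and P2, and of exGF-SI, S7) and at most 1.75% in the other 35. Markers of excitatory neurons summed to 1608 to 2605 CPM and those of the neighbouring striatum to 69.48 to 211.0 CPM, and no marker of any of the 8 cell type or region lists was at 0 in all libraries of a group.

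Because members that move together can be read beside the DNA in front of them, upstream sequences of 4 members are shown: Prpf38b and Dhx8, which rose in GF-SI, Prpf8, which fell in exGF-SI, and Lsm6, which was called in no comparison. They come from RefSeq on GRCm38.p6 and run 5′ to 3′ on the strand of the gene, up to the base before the listed transcription start, or 37 bases short of it in Dhx8, so that no annotated exon is included. Capitals mark the 7 motifs searched on both strands: CCGGAAG (ETS core), GCGCATG (NRF1 core), AAGATGG (YY1 core), TGACG (CRE half-site), CCAAT (the box of that name), CACGTG (E-box) and TATAAA (a core promoter box).
Prpf38b, chr3:108911730-108911979, minus strand: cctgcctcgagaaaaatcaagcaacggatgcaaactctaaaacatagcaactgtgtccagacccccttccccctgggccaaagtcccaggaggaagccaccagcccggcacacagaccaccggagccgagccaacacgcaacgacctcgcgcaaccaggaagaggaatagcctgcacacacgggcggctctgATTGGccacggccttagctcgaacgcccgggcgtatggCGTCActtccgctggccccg
Dhx8, chr11:101732706-101732918, plus strand: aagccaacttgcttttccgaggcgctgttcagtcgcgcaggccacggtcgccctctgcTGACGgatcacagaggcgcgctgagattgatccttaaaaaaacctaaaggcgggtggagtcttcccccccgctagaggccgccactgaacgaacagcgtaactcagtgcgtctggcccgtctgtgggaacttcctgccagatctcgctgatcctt
Prpf8, chr11:75486527-75486776, plus strand: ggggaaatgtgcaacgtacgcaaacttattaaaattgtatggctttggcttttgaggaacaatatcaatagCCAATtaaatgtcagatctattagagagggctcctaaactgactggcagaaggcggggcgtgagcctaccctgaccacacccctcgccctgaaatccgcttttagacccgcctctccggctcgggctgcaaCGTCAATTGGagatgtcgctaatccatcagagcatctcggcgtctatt
Lsm6, chr8:78821153-78821402, minus strand: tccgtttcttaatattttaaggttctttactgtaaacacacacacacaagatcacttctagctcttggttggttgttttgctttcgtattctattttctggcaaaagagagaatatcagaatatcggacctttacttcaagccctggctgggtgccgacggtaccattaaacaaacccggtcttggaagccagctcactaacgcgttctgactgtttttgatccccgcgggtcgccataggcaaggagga

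Prpf38b held a CCAAT box 58 bases before the start and a CRE half-site 20 bases before it, both on the opposite strand. Dhx8 held a CRE half-site on its own strand. Prpf8 held a CCAAT box on each strand and a CRE half-site that adjoins the one on the opposite strand, and Lsm6 held none of the 7 motifs in this window. Upstream windows of 250 bases were at hand for 45 of the 57 members. The ETS core occurred in 17 of these 45 (37.8%), in 14.3% of the 11262 genes tested in GF-SI that have such a window and in 7.83% of all 27025 genes with one. The other motifs occurred in members about as often as in tested genes, for instance the CCAAT box in 42.2% and 40.1% and the CRE half-site in 31.1% and 29.8%. Of the 9 members that rose in GF-SI and had a window, 4 held the ETS core. A match describes letters only, and binding was not measured.

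The helicase Ddx5 stood out in level, and the other members lay within a much narrower range. Per kb of exonic length, the mean of the 6 group means was 123.5 CPM per kb for Ddx5, a DEAD-box helicase that also acts in transcription, next to 37.3 for Snrnp27, a tri-snRNP protein, 29.8 for Prpf8, the scaffold of the catalytic core, 28.8 for Sf3b2 and 27.6 for Sf3b1, which hold the branch point in the U2 snRNP. At the low end were Snrpc of the U1 snRNP with 1.04 CPM per kb, Lsm2 with 1.05 and the U5 protein gene Snrnp40 with 1.79. Exonic length here merges all annotated exons of a gene, so values per kb also depend on the annotation. Snrpc (6521 bp) had group means of 6.54 to 7.15 CPM, and Lsm5 (792 bp) 1.68 to 2.66 CPM. Per kb, Snrpc nonetheless lay below Lsm5 (2.66 CPM per kb). The median member had 8.45 CPM per kb and the median of 15982 tested genes 3.48, and 49 of the 57 members lay above the latter. By class, medians of CPM per kb ran from 5.92 in the LSm ring, 6.57 in the U5 and tri-snRNP class, 7.13 in the U1 snRNP, 8.15 in the Sm ring and 9.48 in the U2 class to 11.2 in the helicases and 14.35 in the Prp19 complex. The highest and lowest of each class were Snrpd1 (14.9) and Snrpg (2.93) in the Sm ring, Lsm7 (11.1) and Lsm2 in the LSm ring, Snrnp70 (16.9) and Snrpc in the U1 snRNP, Sf3b2 and Sf3b5 (2.58) in the U2 class, Snrnp27 and Snrnp40 in the U5 and tri-snRNP class, Ddx5 and Dhx16 (4.345) among helicases, and Cdc5l (24.1) and Ppil1 (4.07) in the Prp19 complex, all in CPM per kb. Several of these proteins sit in the particle in equal number, such as the 7 of the Sm ring. RNA levels of these 7 genes spanned 2.93 to 14.9 CPM per kb, on lengths from 861 bp (Snrpf) to 3442 bp (Snrpd3). Protein was not measured. Small Sm and LSm genes have retrocopies in the mouse genome, so their levels rest on how reads between copies were placed.

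**Figure D1:**
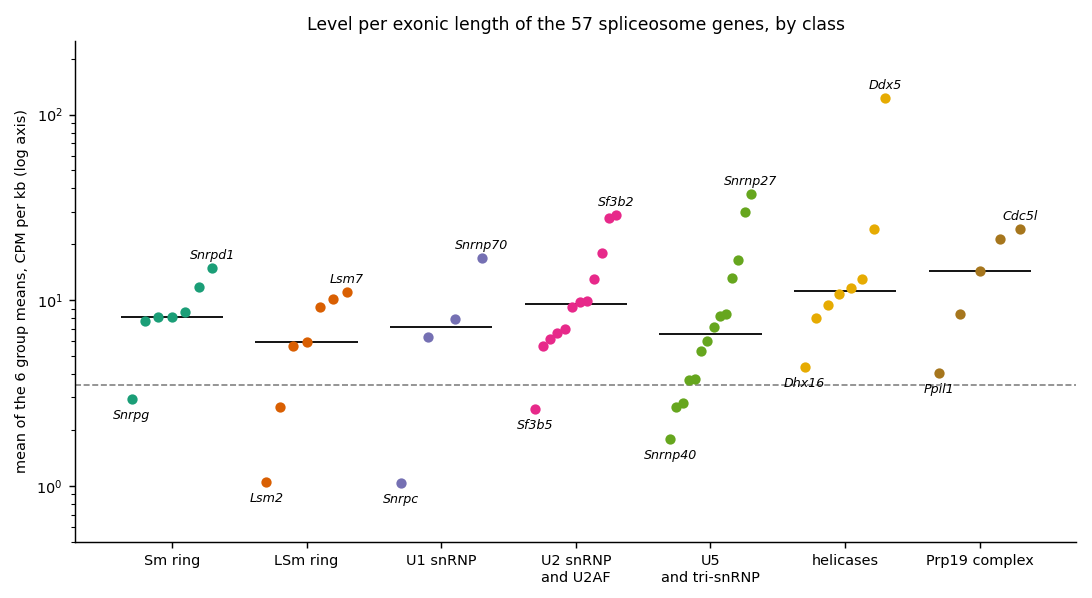
Level of each of the 57 genes in CPM per kb of exonic length (vertical axis, log scale; mean of the 6 group means) by class (horizontal axis), 1 point per gene, with a bar at the class median and a dashed line at 3.48, the median of all genes tested. Ddx5 lies highest at 123.5, and Snrpc and Lsm2 lie lowest near 1.

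The spread of group means was worked out for the members only, not for all genes tested. The highest group mean of a member was 1.22 times its lowest in the median member, and less than 1.5 times it in 53 of the 57. The 4 others were Prpf38b (1.65), Prpf3 (1.62), Lsm5 (1.58) and Snrpf (1.56). Prpf3 and Prpf38b, both of the U5 and tri-snRNP class, were lowest in GF and highest in GF-SI. Snrpf followed the same order, at 5.16 ± 2.04 CPM in GF (SD, n = 4) and 8.03 ± 2.32 in GF-SI (SD, n = 12), but 85.4% of its exonic bases are shared with Ccdc38 and 4933408J17Rik on the opposite strand. Reads were counted without regard to strand, in a mode that assigns a read lying wholly in shared bases to neither gene, so the values of Snrpf rest on the reads that reach its other bases. Another gene shared over 10% of the exonic bases of 6 further members: Eftud2 (26.9%), Prpf31 (18.1%), Sf3a2 (16.1%), Bud31 (15.2%), Snrpa (11.03%) and Txnl4a (10.1%). These are shares of bases, and the share of reads lost is not known.

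**Figure D2:**
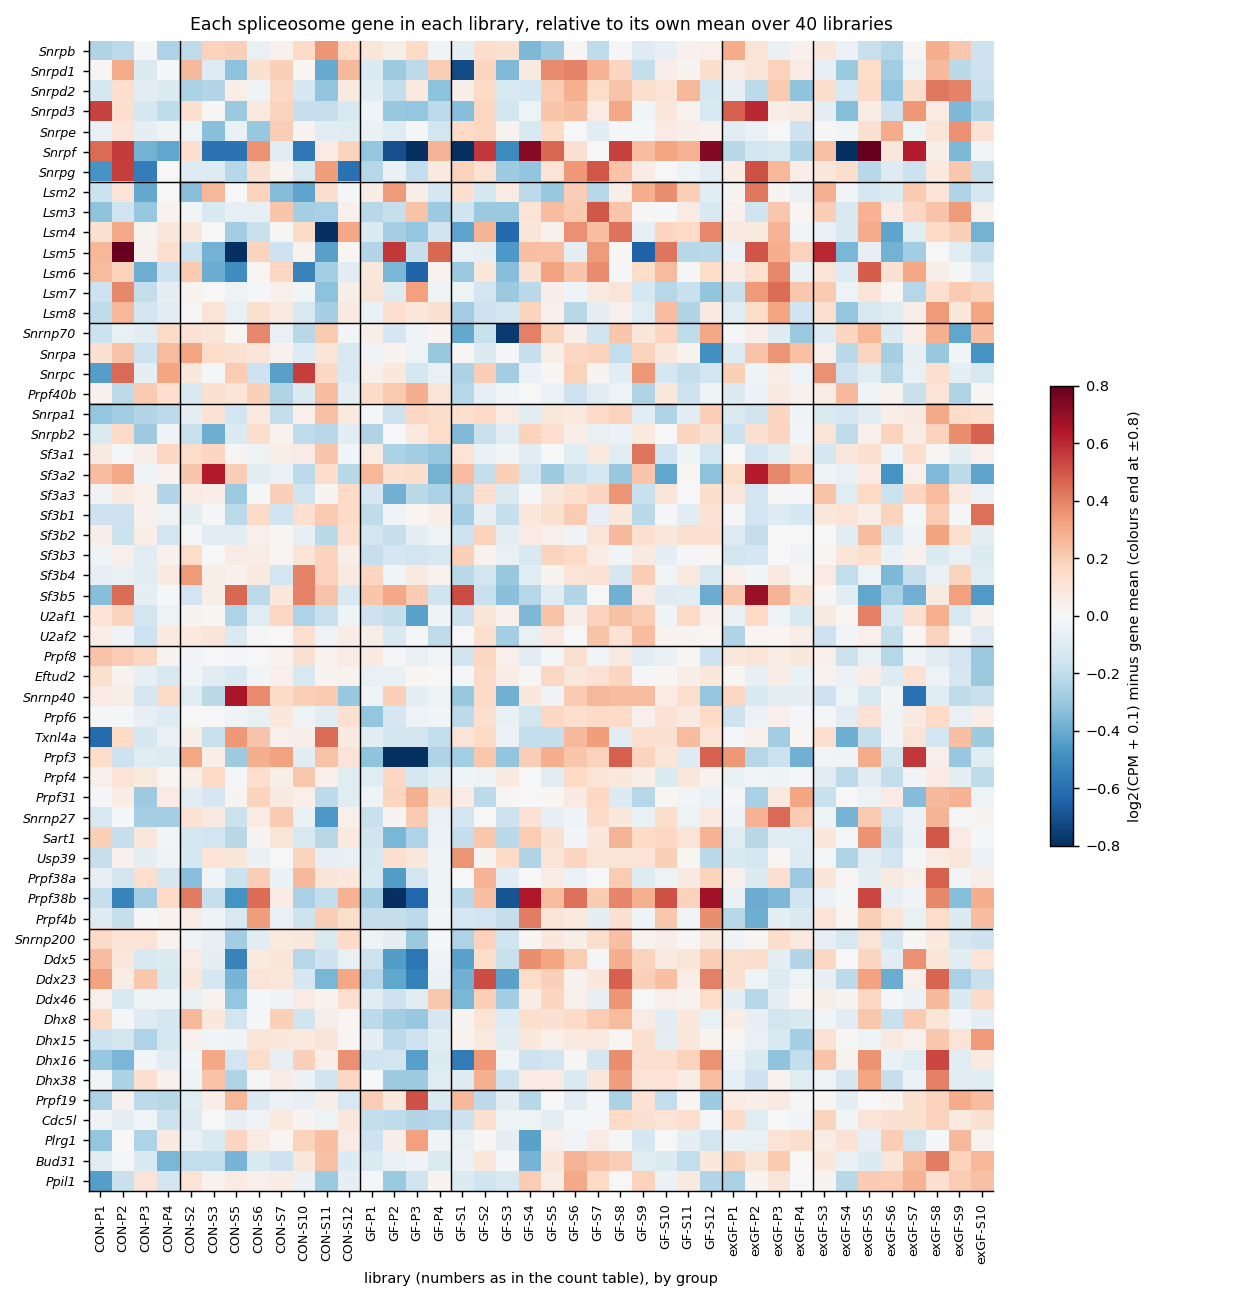
Level of each of the 57 genes (rows, by class) in each of the 40 libraries (columns, by group), as log2(CPM + 0.1) minus the gene's mean over libraries, blue for lower and red for higher. GF-P2 and GF-P3 are blue for Prpf3, Prpf38b, Ddx5 and Ddx23, and GF-S1 and GF-S3 are the bluest GF-SI libraries for Ddx23.

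In germ-free mice, 11 members rose after social interaction and 1 fell (GF-SI against GF), while 45 did not pass. Those that rose were Prpf3, Prpf38b and Sart1 of the U5 and tri-snRNP class, the U2 genes Sf3a3 and Sf3b3, the helicases Ddx5, Ddx23, Dhx8, Dhx15 and Dhx38, and the Prp19 complex gene Cdc5l. Prpf40b, a U1-associated protein, fell. As a share of members these were 19.3% and 1.75%, where 13.7% of all 15443 genes tested were called, 7.87% as higher and 5.86% as lower. The median log2 fold change of the members was 0.13, with 43 of 57 above 0, next to −0.01 over all genes tested, of which 48.11% were above 0. Called rises ran from 0.17 to 0.71 on the log2 scale. An unadjusted p under 0.05 was found for 25 members (43.9%, all genes 24.0%). Without GF-P2 the test called 4 members, without GF-P3 it called 3 and without GF-S1 it called 20. Counts over all genes are not given for fits that left out 1 library. Whether these shifts are particular to the members is therefore not known.

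By class, the test called 5 of 8 helicases, 3 of 14 genes of the U5 and tri-snRNP class, 2 of 12 of the U2 class and 1 of 5 of the Prp19 complex as higher in GF-SI. In the Sm ring and LSm ring it called 0 of 14, while 5 had an unadjusted p under 0.05 and DESeq2 called 3 higher: Snrpd2, Snrpd3 and Snrpf. Over all genes DESeq2 called 1526 of 16070 higher. Median log2 fold changes were 0.26 for helicases, 0.18 for the Sm ring, 0.14 for the U5 and tri-snRNP class, 0.10 for the Prp19 complex, 0.07 for the U2 class, 0.01 for the U1 snRNP and −0.05 for the LSm ring. All 8 helicases lay above 0 and 3 of 7 LSm genes did. Whether the classes differ from each other was not tested.

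**Figure D3:**
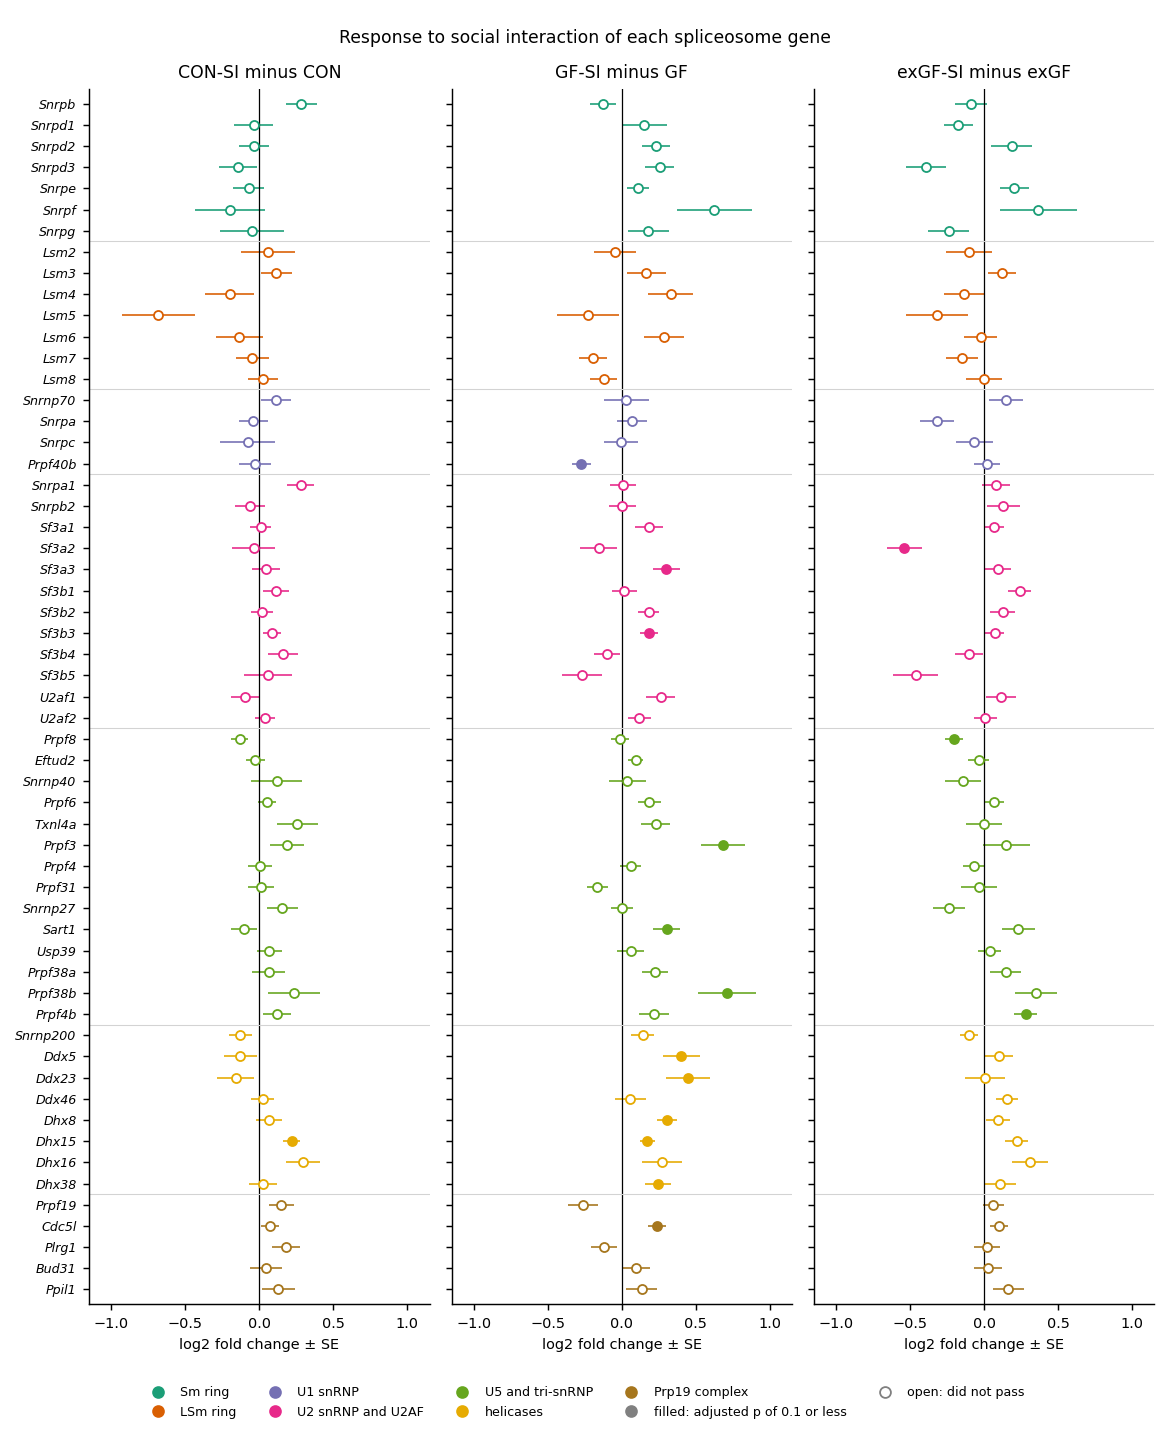
Log2 fold change ± standard error (horizontal axis) of each of the 57 genes (vertical axis, coloured by class) after social interaction in CON, GF and exGF mice, with filled points for an adjusted p of 0.1 or less. Of filled points, 1 stands in CON, 12 in GF, where 11 lie right of 0, and 3 in exGF.

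Prpf38b, which joins the spliceosome around the arrival of the tri-snRNP (chromosome 3, 108902805 to 108911727, minus strand, GRCm38), had the largest rise. It was measured at 31.8, 19.47, 24.7 and 37.33 CPM in GF-P1 to GF-P4 and from 23.7 through a median of 46.05 to 61.02 CPM in the 12 GF-SI animals. GF-P2 and GF-P3 were low, GF-S3 and GF-S1 were the lowest of GF-SI, and the groups overlapped. It rose by 0.71 ± 0.20 on the log2 scale (SE, edgeR adjusted p = 0.035), but was not called without GF-P2 (adjusted p = 0.150) or without GF-P3 (adjusted p = 0.142). CON libraries held 33.6 ± 6.81 CPM (SD, n = 4) and exGF libraries 32.5 ± 3.73 CPM (SD, n = 4).

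Prpf3, which holds the U4 and U6 RNAs of the tri-snRNP together (chromosome 3, 95830124 to 95855885, minus strand), had the smallest p of the members. GF-P1 to GF-P4 held 17.27, 12.06, 12.02 and 18.22 CPM, and GF-SI ran from 17.3 through a median of 24.62 to 30.12 CPM. Only GF-S3 (17.3 CPM) and GF-S1 fell within the range of the naïve libraries. It rose by 0.68 ± 0.15 (log2, SE, edgeR adjusted p = 0.0103), and the call held in each of 16 fits that left out 1 library, with 0.59 to 0.80.

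Of the helicases, Dhx8, which frees the spliced mRNA from the spliceosome (chromosome 11, 101732919 to 101767358, plus strand), kept GF and GF-SI apart. GF-P1 to GF-P4 held 41.77, 39.95, 39.16 and 44.16 CPM and GF-SI 45.08 to 57.76 CPM with a median of 51.74, so every GF-SI library lay above every GF library. The rise was 0.30 ± 0.07 (log2, SE, edgeR adjusted p = 0.0124), and it too kept its call in all 16 fits that left out a library. GF-SI lay wholly above GF in 3 of the 57 members (5.26%, all genes tested 1.98%), namely Dhx8, Cdc5l and Sf3b3, and wholly below in 1 (1.75%, all genes tested 1.2%), Prpf40b.

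Ddx5 (chromosome 11, 106780355 to 106789185, minus strand) held 641.4, 528.4, 483.1 and 707.4 CPM in GF-P1 to GF-P4 and 535.5 to 932.2 CPM, with a median of 803.9, in GF-SI. GF-P2 and GF-P3 were again low and the groups overlapped. It rose by 0.40 ± 0.12 (log2, SE, edgeR adjusted p = 0.0524). Ddx23, which displaces U1 from the 5′ splice site (chromosome 15, 98645134 to 98662894, minus strand), held 57.22, 50.41, 46.11 and 64.72 CPM in GF and 49.8 to 96.45 CPM, with a median of 75.37, in GF-SI, where GF-S3 and GF-S1 stood at the bottom. Ddx23 rose by 0.45 ± 0.15 (log2, SE, edgeR adjusted p = 0.0682). Neither gene was called without GF-P2 or without GF-P3, and Ddx23 was also not called without GF-P1.

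Dhx15, which takes the spent spliceosome apart, rose by 0.17 on the log2 scale (92.2 ± 4.05 to 104.3 ± 4.49 CPM, SD, n = 4 and 12), and Dhx38, which acts between the catalytic steps, by 0.25 (36.2 ± 3.59 to 43.0 ± 4.66 CPM). The call of Dhx15 was lost without GF-P2, without GF-P3 and once GC content and transcript length were corrected for. Dhx38 was near the threshold (adjusted p = 0.0956 from edgeR) and was called in 4 of the 16 fits that left out a library. The other helicases did not pass: Dhx16 stood at 0.27, Snrnp200, which unwinds U4 from U6 RNA, at 0.14 and Ddx46 at 0.06.

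Cdc5l, a scaffold of the Prp19 complex (chromosome 17, 45391884 to 45433737, minus strand), had the tightest naïve GF libraries, at 70.71, 69.88, 68.56 and 68.85 CPM, and 71.39 to 90.13 CPM with a median of 79.92 in GF-SI. It rose by 0.24 ± 0.06 (log2, SE, edgeR adjusted p = 0.0272), a call lost only without GF-P3 among the 16 fits that left out a library. Prpf19, the ubiquitin ligase that gives the complex its name, stood at −0.26 and did not pass, but was called lower once GC content and transcript length were corrected for and in 1 fit over all 6 groups. It was spread widely in GF, from 94.98 CPM in GF-P4 to 146.6 in GF-P3.

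Among the U2 genes, Sf3a3 rose by 0.30 (23.7 ± 1.70 to 29.3 ± 3.31 CPM) and Sf3b3 by 0.18 (61.95 ± 1.14 to 70.5 ± 5.08 CPM). Sart1, which recruits the tri-snRNP, rose by 0.30 (42.8 ± 4.05 to 53.0 ± 5.68 CPM). Calls of Sf3a3 and Sart1 were lost without GF-P2 and without GF-P3. Sf3b3 was called in 10 of the 16 fits that left out a library, and its call was also lost without the low-count filter and once GC content and transcript length were corrected for.

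Prpf40b (chromosome 15, 99295087 to 99317018, plus strand) held 34.02, 35.37, 37.38 and 32.9 CPM in GF-P1 to GF-P4 and 25.81 to 32.43 CPM, with a median of 29.37, in GF-SI. Every GF-SI library lay below every GF library. The log2 fold change of −0.28 ± 0.06 (SE, edgeR adjusted p = 0.0141) kept its call in all 16 fits that left out a library. The other U1 genes, Snrnp70 (0.03), Snrpa (0.07) and Snrpc (−0.01), did not pass.

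**Figure D4:**
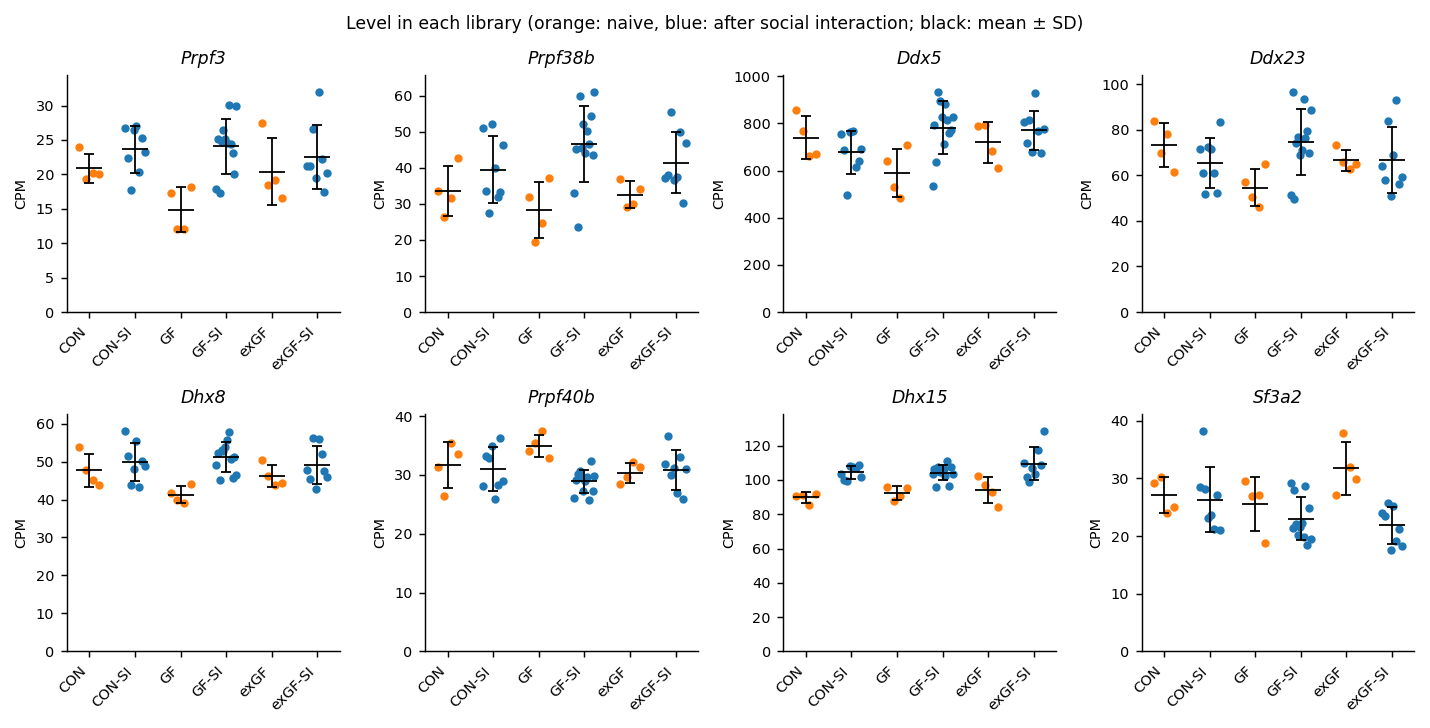
CPM (vertical axes, from 0) of 8 members in each library of the 6 groups (horizontal axes), 1 point per library, with mean ± SD in black. Prpf3, Prpf38b, Ddx5 and Ddx23 are lowest in naïve GF, GF and GF-SI do not overlap for Dhx8 and Prpf40b, and Sf3a2 is highest in naïve exGF.

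The 11 members that rose in GF-SI tended to be low in the same libraries. Of these 11, GF-P3 held the lowest or second lowest naïve GF value of 10 and GF-P2 of 9, against 1 for GF-P1 and 2 for GF-P4. Among the 12 GF-SI animals, GF-S3 was among the lowest 2 for 8 and GF-S1 for 7. In CON-SI the same held of CON-S5 for 10. The 11 were picked by the test of GF-SI against GF, which favours genes low in these GF libraries. Ranks were not counted for the other members or for all genes. The 57 members together summed to 3159 CPM in GF-P2, 3200 in GF-P3, 3130 in GF-S1, 3217 in GF-S3 and 3159 in CON-S5, and to 4037 CPM in the highest library, GF-S8. Other transcripts also differed in these libraries, though not in every one. The mitochondrial mRNA mt-Co1 was at 24830 and 27370 CPM in GF-P2 and GF-P3 and 22440 and 21240 in GF-P1 and GF-P4, and the mitochondrial ribosomal RNA mt-Rnr2 at 23950 and 20270 CPM against 52610 and 49580. GF-S1 and GF-S3 had the lowest mt-Rnr2 of GF-SI, 21720 and 20290 CPM, where the median was 51300, and GF-S1 had the fewest counts of all 40 libraries (7291810). The nuclear RNA Malat1 was at 2954 and 3608 CPM in GF-P2 and GF-P3 and at 4465 and 5967 in GF-P1 and GF-P4. It was lowest of its group in GF-S3 (3233 CPM) and CON-S5 (3197), but near the GF-SI median of 5497 in GF-S1 (5219). The mRNA mt-Co1 was high in GF-S1 (28670 CPM) and GF-S3 (23700), but in CON-S5 (21020) near the CON-SI median of 21035. The part of these differences in the calls was not tested.

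Of cell type markers, 1 of 8 for microglia was called lower in GF-SI (P2ry12, −0.33), 1 of 8 for endothelium higher (Flt1, 0.52), 2 of 8 for striatum lower (Adora2a, −1.97, and Gpr6, −1.11) and 0 of 8 for astrocytes, oligodendrocytes, excitatory neurons and inhibitory neurons. Summed striatal markers lay between 80.77 and 211.0 CPM in GF and between 69.48 and 130.7 in GF-SI. Of choroid plexus markers 6 of 8 were tested and 0 called, and their sum was 21.79 to 32.19 CPM in GF and 19.41 to 1024 in GF-SI. All 6 lay above 0, with a median log2 fold change of 1.525, and 3 had an unadjusted p under 0.05. The part of these in the result was not tested.

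In conventional mice 1 member was called after social interaction (CON-SI against CON): Dhx15 rose. This is 1.75% of members, where 3.72% of 15220 genes tested were called (2.35% higher and 1.37% lower), and 6 members (10.5%, all genes 16.5%) had an unadjusted p under 0.05. Dhx15 held 90.36, 91.34, 85.36 and 92.01 CPM in CON-P1 to CON-P4 and 99.49 to 108.5 CPM, with a median of 105.2, in CON-SI. All CON-SI libraries lay above all CON libraries. It rose by 0.22 ± 0.06 (log2, SE, edgeR adjusted p = 0.0736). The call was lost when CON-P1 and CON-P3 were both left out for their ribosomal RNA (0.19, edgeR adjusted p = 0.384), with no filter on low counts and in 7 of 12 fits that left out 1 library: each of CON-P1 to CON-P4, CON-S6, CON-S10 and CON-S11. Without CON-S2 or without CON-S7, 2 members were called, with no count over all genes to set beside this. Of cell type markers, 1 of 8 for microglia was higher in CON-SI, and 1 each for astrocytes, endothelium, excitatory neurons and choroid plexus was lower. All 6 choroid plexus markers tested had an unadjusted p under 0.05, with 0 above 0 and a median log2 fold change of −1.07. Median mt-Rnr2 was 76525 CPM in CON and 27940 in CON-SI. The part of these in the result was not tested.

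The other members with the smallest p in CON-SI did not pass. Snrpa1, a U2 protein, stood at 0.28 (15.1 ± 0.485 to 18.4 ± 1.84 CPM, adjusted p = 0.143 from edgeR) with no overlap of groups, and it and Lsm5 were called in 1 fit over all 6 groups. It and Dhx15 made 2 of the 57 members (3.51%) with CON-SI wholly above CON, next to 2.45% of all genes tested, and 0 lay wholly below (all genes 1.1%). Lsm5 stood at −0.68, with 4.19 CPM in CON-P2 and 1.98 to 2.34 CPM in the other CON libraries. Snrpb, which codes for the Sm ring protein SmB, stood at 0.28, Dhx16 at 0.30, Plrg1 of the Prp19 complex at 0.18, Txnl4a of the U5 snRNP at 0.26 and Prpf8 at −0.13. The median of the members was 0.02, and the Sm ring (−0.05), LSm ring (−0.05) and U1 snRNP (−0.04) had medians below 0. Ddx5 (−0.13) and Ddx23 (−0.16), which had risen in GF-SI, lay below 0 here and did not pass. Sart1, which had risen there too, also had a lower mean here, 46.7 CPM in CON-SI and 50.2 in CON.

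In exGF mice 1 member rose and 2 fell after social interaction (exGF-SI against exGF), 1.75% and 3.51% of members, where 7.61% of 15264 genes tested were called, 4.6% as higher and 3.01% as lower. An unadjusted p under 0.05 was found for 11 members (19.3%, all genes 20.9%). Sf3a2, a U2 protein (chromosome 10, 80798198 to 80804924, plus strand), held 27.18, 37.96, 32.04 and 29.86 CPM in exGF-P1 to exGF-P4 and 17.63 to 25.67 CPM, with a median of 22.39, in exGF-SI, and no library of one group reached the other. The log2 fold change was −0.54 ± 0.12 (SE, edgeR adjusted p = 0.0314). Its exons overlap Plekhj1 on the opposite strand, and reads wholly within the overlap were assigned to neither gene.

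Prpf8, the protein at the centre of the spliceosome, held 233, 235.3, 227.6 and 231.6 CPM in exGF-P1 to exGF-P4 and 178.3 to 225.1 CPM, with a median of 201.4, in exGF-SI. All exGF-SI libraries lay below the naïve ones, with a log2 fold change of −0.20 ± 0.06 (SE, edgeR adjusted p = 0.0795). Of 12 fits that left out 1 library, Prpf8 was called in 5. Its call was also lost with no filter on low counts. Prpf4b, a kinase that phosphorylates tri-snRNP proteins, rose by 0.28 (98.9 ± 9.29 to 120.2 ± 10.1 CPM, SD, n = 4 and 8, edgeR adjusted p = 0.0641), was called in 8 of these 12 fits and lost its call once GC content and transcript length were corrected for. Sf3b5 (−0.46), Snrpd3 of the Sm ring (−0.39), Snrpa of the U1 snRNP (−0.32), Sf3b1 (0.24) and Dhx15 (0.22, adjusted p = 0.118 from edgeR) were next by p and did not pass. DESeq2 called each of these 5, as did edgeR in 1 fit over all 6 groups. Over all genes DESeq2 called 1643 of 13696 and the 1 fit 1401 of 16111. Sf3b1 was the 1 member (1.75%) with exGF-SI wholly above exGF (all genes 2.87%), and Sf3a2 and Prpf8 were the 2 (3.51%) wholly below (all genes 1.62%). Without exGF-P2 the test called 0 members, as it did without the 3 exGF and exGF-SI libraries rich in ribosomal RNA, where Sf3a2 stood at −0.53 (adjusted p = 0.129), Prpf8 at −0.20 (adjusted p = 0.303) and Prpf4b at 0.21 (adjusted p = 0.332). It called 1 without exGF-P4 or exGF-S10, 5 without exGF-S7 and 6 without exGF-S5 or exGF-S9. For these fits that left out 1 library, counts over all genes are not given. Of cell type markers in exGF-SI, 2 of 8 for microglia, 1 for endothelium, 1 for excitatory and 1 for inhibitory neurons were lower, and 1 each for inhibitory neurons, choroid plexus and striatum was higher. All 6 choroid plexus markers tested lay above 0, with a median log2 fold change of 2.1, and 4 had an unadjusted p under 0.05. Median mt-Rnr2 was 69905 CPM in exGF and 28785 in exGF-SI. The part of these in the result was not tested.

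Dhx15 was named in all 3 responses, with log2 fold changes of 0.22, 0.17 and 0.22, and passed in CON-SI and GF-SI. The 11 genes that rose in GF-SI all had positive values in exGF-SI as well, from 0.0043 for Ddx23 to 0.35 for Prpf38b, and 0 passed there (DESeq2 called Dhx15). Above 0 in exGF-SI were 34 of all 57 members (59.6%), these 11 included, and 49.95% of all genes tested. In CON-SI the means of Ddx5, Ddx23 and Sart1 lay below those in CON. CON-SI, GF-SI and exGF-SI values are given side by side, and the tests of their differences follow.

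Whether the responses differ was tested in 1 fit over the 6 groups, and edgeR called 0 members in any of the 3 differences. Between the GF and CON responses 19 of 57 members (33.3%) had an unadjusted p under 0.05, next to 15.8% of 16111 genes, of which 0.0931% were called. Ddx5 came first by p, with a response higher in GF by 0.53 ± 0.16 on the log2 scale (SE, edgeR adjusted p = 0.134). Prpf19 (−0.41, adjusted p = 0.134) and Snrpb (−0.41, adjusted p = 0.149) lay the other way. DESeq2 called 4 of the 55 members it tested: Ddx5, Ddx23 and Sart1 higher and Prpf19 lower in GF. Over all genes it called many more than edgeR, 495 of 11694. The median difference was 0.10 over members and −0.0033 over all genes, and by class 0.23 for the helicases and for the Sm ring. Leaving out 1 library gave 0 to 4 calls, the most without GF-S1, and 1 to 3 without CON-P4, CON-S2, CON-S7 and GF-P4. Counts over all genes are not given for these fits. Choroid plexus markers also differed between the GF and CON responses. All 8 lay above 0, with a median difference of 3.50, 7 at an unadjusted p under 0.05 and 0 called by edgeR. The other marker lists had 0 to 3 of 8 at that p and 0 called. The part of this in the result was not tested.

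Between the exGF and CON responses 6 members had an unadjusted p under 0.05 (10.5%, all genes 5.83%), and edgeR and DESeq2 called 0, where edgeR called 0.0% of all genes. Snrnp27 (−0.40), Snrpb (−0.37) and Sf3a2 (−0.50) had the smallest p, with edgeR adjusted p-values of up to 0.820. Between the exGF and GF responses 9 did (15.8%, all genes 11.4%, with 0.0% of all genes called). Snrpd3 had a difference of −0.65 ± 0.18 (log2, exGF minus GF, SE, edgeR adjusted p = 0.232) and was the 1 member DESeq2 called, and Snrpa (−0.39) and Prpf3 (−0.54) followed. Over all genes DESeq2 called 43 of 11134 in this difference. The GF and CON, and GF and exGF, differences share the GF and GF-SI libraries. Between the exGF and CON responses all 8 choroid plexus markers lay above 0 (median 3.95, 7 at an unadjusted p under 0.05, 0 called). Between the exGF and GF responses 6 of 8 did (median 0.28, 0 at that p). The part of this in the result was not tested.

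**Figure D5:**
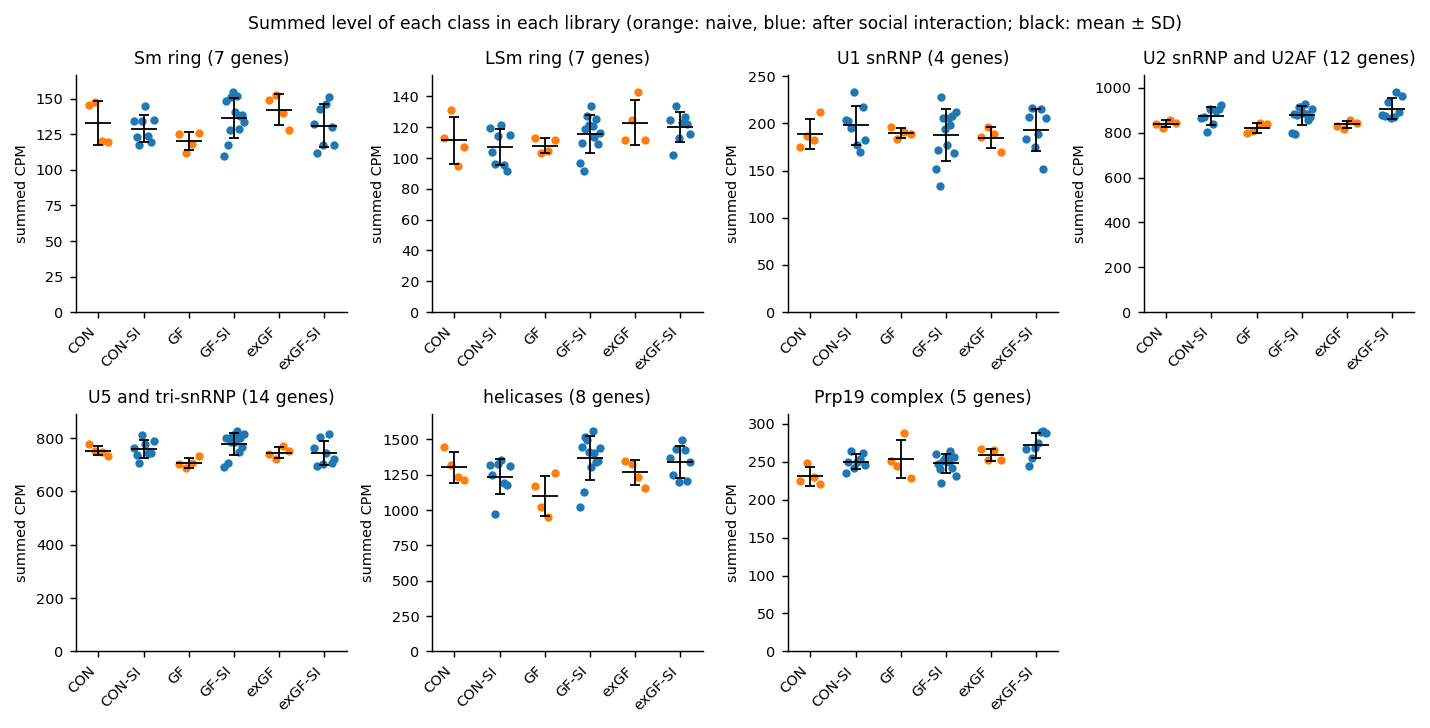
Summed CPM (vertical axes, from 0) of the genes of each of the 7 classes in each library of the 6 groups (horizontal axes), with mean ± SD in black. Helicases sum to 1100 ± 142 in GF and 1367 ± 156 in GF-SI, while the U1 snRNP stands between 185.1 and 197.9 in all groups. Most of the helicase sum is Ddx5 (mean 590.1 in GF and 782.1 in GF-SI). Most of the U1 sum is Snrnp70 (group means 121.6 to 135.6), so the fall of Prpf40b hardly shows in it.

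Before stimulation, edgeR called 0 members between colonisation groups. In GF against CON 10 members had an unadjusted p under 0.05 (17.5%, all genes 11%) and DESeq2 called 0, where edgeR called 0.142% of 14811 genes. Ddx23 was lowest by p, at 83.88, 69.93, 77.98 and 61.64 CPM in CON-P1 to CON-P4 and 46.11 to 64.72 CPM in GF (log2 fold change −0.42, edgeR adjusted p = 0.308). Prpf3 stood at −0.47 and Lsm4 at −0.35, and for both each GF library lay below each CON library. GF lay wholly below CON in 5 members (8.77%) and wholly above in 1 (1.75%). Shares over all genes were not worked out, so these counts cannot be read as a trait of the members. Among the 5 were Cdc5l (at most 70.71 CPM in GF, at least 71.51 in CON) and Sf3b3 (62.92 and 64.67). For both, GF-SI lay wholly above GF, and the 2 comparisons share the GF libraries. Of the helicases 4 of 8 had an unadjusted p under 0.05, Ddx23 among them, and the class summed to 1301 ± 107.6 CPM in CON and 1100 ± 142.1 in GF (SD, n = 4 each). Ddx5 alone made up most of this sum, with a mean of 739.1 CPM in CON and 590.1 in GF. In CON the sum was highest in CON-P1 (1447 CPM), the library with the most ribosomal RNA, and in GF it was lowest in GF-P3 (948.9 CPM).

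In exGF against CON 5 members had an unadjusted p under 0.05 (8.77%, all genes 5.43%), and edgeR and DESeq2 called 0, where edgeR called 0.104% of 14463 genes. Snrnp27 (0.40, 60.4 ± 5.30 to 79.7 ± 11.1 CPM), Bud31 of the Prp19-related core (0.27) and Prpf19 (0.20) came first, with edgeR adjusted p-values of up to 0.872. In exGF against GF 11 did (19.3%, all genes 9.42%), where edgeR called 0.0% of 14669 genes. Snrpd3 stood at 0.52, with 38.58, 32.1, 31.84 and 34.16 CPM in GF-P1 to GF-P4 and 55.12, 60.18, 40.89 and 41.64 CPM in exGF-P1 to exGF-P4, no overlap and an adjusted p of 0.391 from edgeR. The 2 highest of these, exGF-P1 and exGF-P2, are the naïve exGF libraries rich in ribosomal RNA, as is CON-P1, which held 57.6 CPM where the other CON libraries held 34.33 to 43.42. Whether this bears on Snrpd3 was not tested. In 4 members (7.02%) exGF lay wholly above GF and in 1 (1.75%) wholly below. Shares over all genes were not worked out here either, so nothing follows for the members as a set. DESeq2 called Snrpd3 and no other member, and edgeR called it as well when no filter on low counts was applied. Over all genes these called 72 of 12347 and 80 of 25902. Cdc5l (0.22) and Ddx23 (0.28) followed.

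After social interaction, too, edgeR called 0 members between groups. Unadjusted p-values under 0.05 were found for 9 members in GF-SI against CON-SI (15.8%, all genes 16.5%, with 1.1% of all genes called), 12 in exGF-SI against CON-SI (21.1%, all genes 13.5%, with 1.31% called) and 7 in exGF-SI against GF-SI (12.3%, all genes 12.9%, with 0.0995% called). The first of each by p were Eftud2, the GTPase of the U5 snRNP (0.11), Sart1 (0.18) and Plrg1 (−0.15) in GF-SI against CON-SI, Snrpb2 of the U2 snRNP (0.28), Prpf8 (−0.15) and Bud31 (0.24) in exGF-SI against CON-SI, and Lsm7 (0.19), Prpf19 (0.18) and Eftud2 (−0.12) in exGF-SI against GF-SI. DESeq2 called 0, 2 (Snrpb2 and Prpf8) and 0 members in the 3 pairs, and over all genes 521 of 15901, 558 of 16761 and 296 of 14209. In exGF-SI against CON-SI edgeR called Snrpb2 higher and Prpf4 lower in 1 fit over all 6 groups, which called 522 of 16111 genes. Ddx5, for example, held 782.1 ± 112.0 CPM in GF-SI (SD, n = 12), 676.8 ± 92.0 in CON-SI and 770.3 ± 83.1 in exGF-SI (SD, n = 8 each), and the ranges overlapped.

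Other proteins of the splicing pathway were counted for comparison. Of 50 further spliceosome proteins 9 rose in GF-SI, 6 in exGF-SI and 1 in CON-SI, and 0 fell in any of the 3. Over all genes tested 7.87%, 4.6% and 2.35% rose in these comparisons, and the counts of this and the following lists stand beside those shares. Acin1, of the exon junction complex, rose in all 3, with log2 fold changes of 0.30 in CON-SI, 0.65 in GF-SI (71.1 ± 10.6 to 112.2 ± 13.3 CPM, adjusted p = 0.00145 from edgeR) and 0.32 in exGF-SI. Luc7l, which helps U1 choose the 5′ splice site, rose in GF-SI (0.34) and exGF-SI (0.22), and Prpf18, which acts at the second catalytic step, rose in GF-SI (0.34) and stood at 0.20 in CON-SI. Wbp4 rose in exGF-SI (0.42).

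Of 10 proteins of the minor spliceosome, which removes a rare class of introns, 2 rose in GF-SI, 2 in exGF-SI and 0 in CON-SI (2 there at an unadjusted p under 0.05). Snrnp48 rose in GF-SI (0.53, 10.4 ± 1.41 to 15.1 ± 2.22 CPM) and exGF-SI (0.48) and stood at 0.37 in CON-SI (adjusted p = 0.103 from edgeR). Pdcd7 rose in exGF-SI (0.37) and Zrsr1 in GF-SI (0.34). Of 20 proteins that build and recycle snRNPs, 1 fell in GF-SI (Usb1, which trims U6 RNA, −0.47), 1 rose in exGF-SI (Ddx20 of the SMN complex, 0.28) and 0 were called in CON-SI (2 at an unadjusted p under 0.05). Of 7 LSm proteins outside the U6 ring, Lsm14a rose in GF-SI (0.31), Lsm1, of the ring that acts in mRNA decay, rose in exGF-SI (0.37), and 0 were called in CON-SI (4 at an unadjusted p under 0.05).

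Of 11 spliceosomal snRNA genes 5 were tested, and edgeR called 0 in any response, with 2 in GF-SI and 0 in CON-SI and exGF-SI at an unadjusted p under 0.05. These were Rnu12 (−0.75, 1.53 ± 0.816 to 0.902 ± 0.263 CPM) and Rnu1a1 (−0.45). Mature snRNAs are short and have many near-identical copies in the genome, so these low values are uncertain.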

How the data were processed

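Per the labels and methods, the authors sequenced ribosome-depleted stranded libraries, trimmed reads with Trimmomatic 0.32, aligned them with STAR 2.4.0f1 to GRCm38.p3 and counted reads per gene with HTSeq 0.6.0, ignoring strand. The deposited values are raw counts in 40 libraries, of 7291810 to 19961958 counts each, which bounds the precision for low genes. Column names show the group but not which sample, and 0 columns were left unused. Genes kept by filterByExpr were tested in edgeR 4.0.16 (TMM, quasi-likelihood F-test, 2-sided, BH threshold 0.1), each pair of groups alone and differences of responses in 1 fit over all 6 groups. Alternatives were DESeq2 1.42.0, RLE scaling, no filter, leaving out libraries over 5% Gm42418, GC and length offsets (splines with 5 degrees of freedom), 1 fit throughout and leaving out each library. The fits were tested on simulated data. SI libraries came from 1 animal each, and naïve p-values measure the spread between pools. Tests of SI against naïve libraries estimate 1 spread per gene over pools and single animals together, although these may differ in spread. Pools may also lie closer together than animals, which bears on statements that groups did not overlap. Values were given for the 8 members with the smallest p in each SI response, the first 3 in other comparisons and the highest and lowest of each class, while other members were named after their values were seen. Exonic lengths are the merged bases of all exons of a gene in the GENCODE annotation of GRCm38. Members and lists were chosen with earlier results of these data known.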

Additional observations from a re-analysis of the deposited data

Results flagged for a closer look

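Among 40 named members in the 5 groups of 4 or 8 libraries, 15 of 200 sets held a library far from the rest by Dixon's test, which chance gives in about 1 of 20. The 12 GF-SI libraries were not tested this way, and no cause was tested. Values are CPM, with the range of the other libraries of the group after each.

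In the Sm and LSm rings, Snrpb was 15.8 in CON-P3 (13.4 to 13.8), Lsm5 was 4.19 in CON-P2 (1.98 to 2.34) and 2.99 in exGF-S3 (1.46 to 1.94), Lsm2 was 4.40 in exGF-P2 (3.12 to 3.31) and Lsm7 was 13.7 in CON-S11 (16.7 to 17.8). Lsm5 in CON-P2 bears on the log2 fold change of −0.68 in CON-SI. In the U2 class, Sf3a2 was 38.15 in CON-S3 (21.0 to 28.6) and Sf3b1 was 429.7 in exGF-S10 (314.4 to 364.2).

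In the U5 and tri-snRNP class, Txnl4a was 10.5 in exGF-P3 (12.65 to 13.1), Sart1 was 42.2 in exGF-P2 (46.0 to 46.4), Prpf4b was 111.7 in GF-P4 (97.9 to 99.4), and Snrnp40 was 7.92 in exGF-P1 (6.48 to 6.70) and 4.64 in exGF-S7 (6.13 to 6.94). The helicase Dhx16 was 13.4 in GF-P3 (16.3 to 16.8). Prpf19 was 105.5 in CON-P2 (86.6 to 88.8) and 123.7 in CON-S5 (93.9 to 106.8), and CON-S5 is the library that was low for most members that rose in GF-SI.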

How the results depend on the processing

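Counts of members called moved as follows. In CON-SI 1 was called, against 0 with no filter, 0 without the libraries rich in Gm42418, 3 in 1 fit over all groups and 0 to 2 when a library was left out. In GF-SI 12 were called, against 19 by DESeq2 and 3 to 20 when a library was left out, with 10 to 16 under the other alternatives. In exGF-SI 3 were called, against 8 by DESeq2, 8 in 1 fit over all groups, 0 without the libraries rich in Gm42418 and 0 to 6 when a library was left out. Where 0 were called, DESeq2 called 1 in exGF against GF, 2 in exGF-SI against CON-SI, 4 in the GF minus CON response and 1 in the exGF minus GF response. Over all genes it called 72 of 12347, 558 of 16761, 495 of 11694 and 43 of 11134 there. For exGF against GF no filter gave 1, for exGF-SI against CON-SI 1 fit gave 2, and leaving out a library gave 0 to 1 in the latter and 0 to 4 in the GF minus CON response. Over all genes DESeq2 called 962 of 16335 in CON-SI, 2486 of 16070 in GF-SI and 1643 of 13696 in exGF-SI. The 1 fit over all groups called 969, 2503 and 1401 of 16111. With no filter the calls were 402 of 26952, 1502 of 27409 and 722 of 26717. Without the libraries rich in Gm42418 the calls over all genes went from 566 to 26 in CON-SI and from 1161 to 155 in exGF-SI. The cause of these shifts was not tested, and counts over all genes are not given for fits that left out 1 library. Of 55 named log2 fold changes, picked for a small p or a call, 16 were called, and 0 of 1194 alternative values reversed. The fits share most of their libraries, so a reversal was unlikely from the start. On their side of the threshold stayed 1091, which counts both kept calls and results that stayed uncalled. Calls were lost in 51 fits that left out a library and in 11 others, and gained in 20 and 21.

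No paired analysis was possible because the groups are separate animals or pools, no label ties a replicate number to a litter, batch or day, and the columns of the count table do not carry the labels' numbers.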
